A study of Mus musculus with 8 samples.

Results

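The genes described here encode the proteins of the cytosolic ribosome. They were taken by symbol (Rpl, Rplp and Rps followed by a number, with the suffixes of paralogs) from the genes that passed the filter on low counts, which gave 83 of 19470 tested genes. Of the 83, 52 belong to the large subunit and 31 to the small subunit, and 75 are canonical genes while 8 are paralogs whose symbols end in l, l1 or al. Kinases such as Rps6kb1 and pseudogenes whose symbols end in -ps were left out by the rule, as were Rpsa, Fau and Rack1, which are given as partners. Another 3 symbols that fit the rule did not pass the filter, with 0 to 2 counts per mouse for Rpl10l, 1 to 12 for Rpl39l and 0 in every mouse for Rps12l1. Rpl10l and Rpl39l are known mainly from the testis.

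RNA was sequenced from whole lumbar spinal cord of 8 male mice on a C57BL/6J background, each of them carrying the SOD1G93A transgene and 1 Cx3cr1Cre allele, and each given tamoxifen in 5 injections at 12 weeks of age. The 4 mice that were Ager fl/fl are called Ager deleted and bear the numbers E1776, E5231, E5248 with E5568. The 4 Cre controls were Ager +/+ and bear the numbers E5386, E5642, E6578 with E6732. Where a sentence lists 4 values for a genotype, they follow this order of mice. By the sample labels every mouse was 120 days old, whereas the study's text places the harvest at end-stage. SOD1G93A is a mutant human superoxide dismutase that gives mice a motor neuron disease used as a model of amyotrophic lateral sclerosis, and Ager encodes RAGE, a cell surface receptor. Every group carried the mutant transgene, so no healthy cord enters the comparison. The Cre is tamoxifen-inducible and is driven from the Cx3cr1 locus, which in the cord is active in microglia and related macrophages. Transcripts of all cells of the cord were read together, so that fewer cells of a type and less RNA per cell cannot be told apart. Values are given as CPM, the counts of a gene scaled to a fixed library size after TMM normalization (trimmed mean of M values).

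A cytosolic ribosome holds 1 copy of nearly every protein described here, so their transcripts are made in broadly coordinated amounts in growing and resting cells alike. Most of these transcripts begin with a 5′ terminal oligopyrimidine (TOP) tract, a C followed by a run of pyrimidines, through which the mTORC1 pathway and LARP1 govern their translation and storage. Neurons also carry ribosomal protein transcripts into axons, and translation is a process much studied in motor neuron disease.

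The targeted gene was checked first. Ager itself stood at 0.889, 1.51, 1.02 and 1.34 CPM in Ager fl/fl cords and at 1.53, 2.22, 2.18 and 2.41 CPM in the Ager +/+ cords. All 4 Ager-deleted mice were below all 4 controls (log2 fold change -0.81 ± 0.22 SE, adjusted p = 0.252 in edgeR's exact test). Counts on genes totalled 31148047 to 40324897 per mouse, and 3 counts corresponded to at most 0.0963 CPM. Summed markers of oligodendrocytes (21400 to 23900 CPM), astrocytes (13600 to 19100 CPM) and neurons (4480 to 5820 CPM) were present in every mouse, and no marker of these lists was at 0. A set of 31 skeletal muscle markers summed to 1460 CPM in control E5386 and 2180 CPM in control E5642, against 122 to 150 CPM in the other 6 mice. Liver transcripts such as Ttr, a secreted carrier protein, were high in control E6732 (28.1 CPM, against at most 0.52 CPM elsewhere).

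The start sites show features that were more frequent in these genes than in others and that the symbol rule did not use. The windows below are 30 bases long on GRCm38.p6, from the RefSeq promoter table, and run from 15 bases before the annotated first base of the transcript to 14 bases after it, 5′ to 3′ on the gene's strand. Capitals mark the longest unbroken run of C and T in the window. The first 6 genes are canonical members, of which Rpl15, Rps15a and Rpl39 were among those with the smallest p in the genotype comparison, and the last 4 are paralogs.
Rps9 (chr7:3704026-3704055, + strand): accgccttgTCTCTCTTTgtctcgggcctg
Rpl28 (chr7:4792950-4792979, + strand): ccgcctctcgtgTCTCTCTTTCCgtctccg
Rps6 (chr4:86857353-86857382, - strand): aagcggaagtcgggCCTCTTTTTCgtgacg
Rpl15 (chr14:18270972-18271001, - strand): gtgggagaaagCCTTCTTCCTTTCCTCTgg
Rps15a (chr7:118116133-118116162, - strand): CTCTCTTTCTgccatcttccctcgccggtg
Rpl39 (chrX:37085208-37085237, - strand): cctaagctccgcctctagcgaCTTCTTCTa
Rpl22l1 (chr3:28805493-28805522, + strand): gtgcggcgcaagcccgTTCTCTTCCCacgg
Rps27l (chr9:66946071-66946100, + strand): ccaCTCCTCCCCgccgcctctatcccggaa
Rpl7l1 (chr17:46782642-46782671, - strand): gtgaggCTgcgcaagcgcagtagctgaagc
Rpl3l (chr17:24727811-24727840, + strand): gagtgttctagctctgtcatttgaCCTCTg

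The 6 canonical windows hold runs of 8 to 17 pyrimidines at or near the annotated start. Among the paralogs, the window of Rpl22l1 holds a run of 10 and that of Rps27l a run of 9. Rpl7l1 has a longest run of 2 and Rpl3l of 5. The promoter table held 61 of the 83 members. Within 20 bases before and 20 after the start, a pyrimidine run of 8 or more was found for 29 of these 61 (47.5%), against 15.9% of all 27025 genes in the table. The letters CTTTCC on the gene's strand, read from 20 bases before the start to 50 bases after it, were found for 26.2% of members and 3.22% of all genes. The letters CCGGAAG, the core that ETS factors recognise, were found on either strand of the whole 300-base window for 22 of 61 members (36.1%) and for 9.14% of all genes. The windows overlap, so a CCGGAAG on the opposite strand and a pyrimidine run can share bases. Annotated starts can lie some bases away from the start in use, and a gene without a match lacks only those letters in that window.

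The members are spread over 19 chromosomes, with 4 on the X chromosome. Their exons are short, with a median of 963 bases against 2929 bases over tested genes. GENCODE M21 classes 80 of them as protein coding and 3 as pseudogenes (Rpl6l, Rpl32l and Rps4l, none of which carries the -ps suffix). Retrocopies of these genes are common in the mouse genome. Across the 83 members, a median of 50.9% of the 50-base stretches of a member's transcript also occurred in transcripts of other genes. The shared portion was largest for Rpl9 (93.3%), Rpl10 (92.1%) and Rps12 (90.1%), and it was 0 for Rpl3l. A read pair that lies wholly within such stretches may match more than 1 gene, which makes levels of single members less certain. Differences between mice rest on the same stretches in each library. How many read pairs this affected was not tested. Over the 75 canonical members, the shared portion had a Spearman rank correlation of -0.07 with mean CPM per kb of exon.

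Ribosomal protein transcripts were among the most abundant in the cord. Levels between genes are given per length, as mean CPM per kb of exon over 8 mice. The length counts every exon base of a gene's annotated transcripts together, so it can exceed that of a single transcript. Rps15a, with 5395 such bases, was at 164 CPM and 30.3 CPM per kb. The median canonical member stood at 147 CPM per kb, above 98.5% of 19079 tested genes with a known length. Canonical small subunit genes had a median of 165 CPM per kb, and canonical large subunit genes 138. The canonical distribution had a 5.49-fold range from the 10th percentile (49.4 CPM per kb) to the 90th (272). The part of annotated length in these ranks and medians was not tested.

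**Figure D1:**
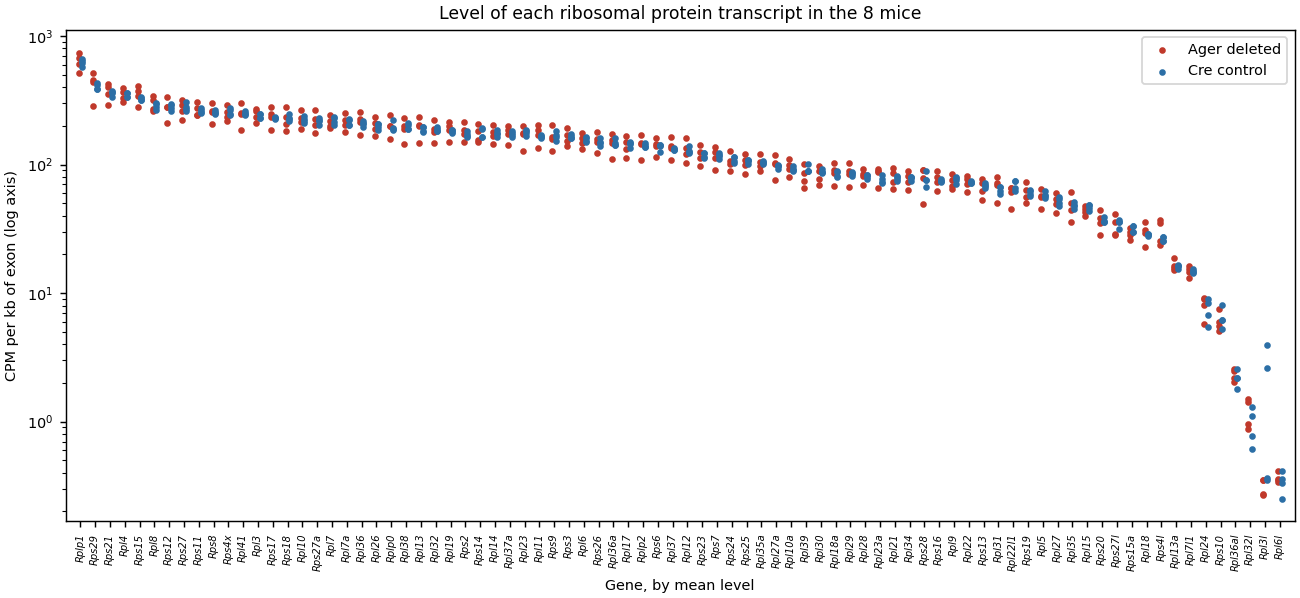
Level of 82 of the 83 ribosomal protein transcripts in CPM per kb of exon (y axis, logarithmic), ordered by mean level, with 1 point per mouse (red, Ager deleted; blue, Cre control). Rplp1 leads at a mean of 627 CPM per kb, most canonical genes lie within 1 order of magnitude, and Rpl24, Rps10 and 4 of the paralogs lie far lower.

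Rplp1, an acidic protein of the ribosomal stalk that recruits translation factors, was the highest per length at 627 CPM per kb. It was followed by Rps29 (413), Rps21 (362), Rpl4 (348) and Rps15 (339 CPM per kb). Rplp1 reached 302, 371, 257 and 335 CPM with Ager deleted and 284, 328, 319 and 305 CPM in the controls. Rpl4, a protein that lines the nascent peptide exit tunnel, had the most counts, with 504, 601, 472 and 569 CPM in the Ager-deleted group and 513, 553, 551 and 516 CPM in the controls. In both genes the controls lay inside the range of the Ager-deleted mice. Rps29, Rps21, Rpl4 and Rps15 were neighbours in this order whose values overlapped between mice.

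A few canonical members were far below the others although each ribosome needs them. Rps10 was listed at 6.2 CPM per kb and Rpl24 at 7.7 CPM per kb, followed by Rpl13a at 16.3 CPM per kb. Each of these genes shares exon sequence on its own strand with a second annotated gene, which covers 71.5% of the exon bases of Rpl24 (Gm28037), 38.8% of Rps10 (RPS10-NUDT3) and 54.9% of Rpl13a (mainly Gm45713). Gm28037 and Gm45713 had 0 counts in every mouse. The counting of reads that fall on both genes was not tested, so the low values are not read as low expression. Rpl36al, a paralog of Rpl36a, was also low at 2.25 CPM per kb, with 24.5% of its exon bases under Gm49383, which had 0 counts in every mouse as well.

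The genotype comparison asked whether removal of Ager from Cx3cr1-expressing cells changed the level of ribosomal protein transcripts in the cord. None of the 83 members passed the 0.05 threshold on the adjusted p, whether by edgeR's exact test (0 of 83, with 14 of all 19470 genes called, 0.0719%) or by edgeR's quasi-likelihood test (0 of 83, background 0.00514%). At an unadjusted p under 0.05, 1 member was found in either test, Rpl3l, against 4.26% of all tested genes in the exact test. The median log2 fold change of the members (Ager deleted over Cre control) was 0.011, beside 0.007 over all tested genes. Of the members, 46 had a fold change above 0 (55.4%, against 52.0% of all tested genes). The large subunit median was 0.013 (30 of 52 above 0), and the small subunit median was 0.0 (16 of 31 above 0). No member had genotypes that did not overlap, whereas this held for 3.88% of all tested genes.

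**Figure D2:**
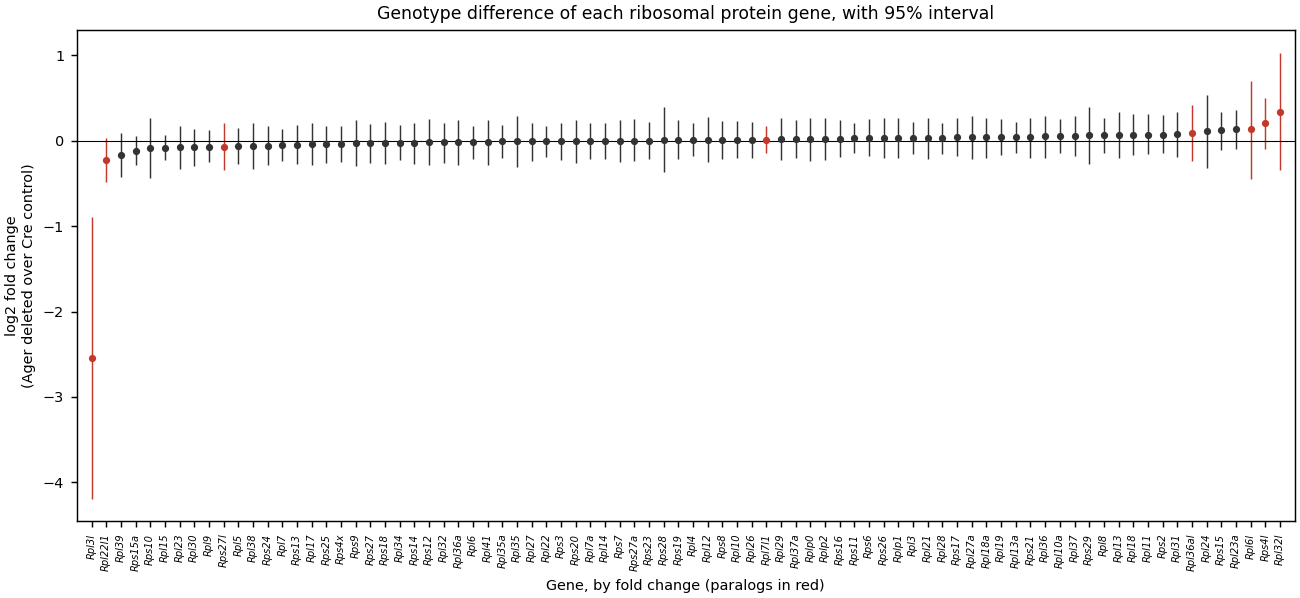
Log2 fold change (y axis, Ager deleted over Cre control) of 82 of the 83 genes, ordered by value, with its 95% interval from the quasi-likelihood fit; paralogs are red and canonical genes black. Of all 83 estimates, 73 lie within 0.1 of 0, and Rpl3l at -2.54 is the exception at the left.

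The intervals bound what the data could have missed. For 78 of 83 members the 95% interval of the log2 fold change lay within 0.5 of 0, which is a change of at most 1.41-fold in either direction. The standard error had a median of 0.1 over the members. Rps6, the small subunit protein whose phosphorylation is used as a readout of mTORC1 signalling, had 123, 141, 99.9 and 127 CPM in the Ager-deleted group and 125, 125, 122 and 109 CPM in the controls (log2 fold change 0.03, interval -0.18 to 0.25). Rpl11 and Rpl5, which bind MDM2 when they are not in a ribosome and so link ribosome assembly to p53, had log2 fold changes of 0.07 (interval -0.16 to 0.31) and -0.06 (interval -0.27 to 0.15). Rpl11 was at 145 ± 24.2 CPM in the Ager-deleted group and 138 ± 3.71 CPM in the controls (SD, n = 4 each), and Rpl5 at 114 ± 16.1 and 119 ± 6.61 CPM.

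Next to Rpl3l and the paralog Rpl22l1, described with the paralogs, the smallest p among canonical members were those of Rpl39, Rps15a, Rpl23a, Rpl15, Rps15 and Rpl30, for which edgeR's exact test gave an adjusted p of 1. Rpl39, a small protein at the exit tunnel, was at 40.5, 61.4, 45.7 and 52.3 CPM in the Ager-deleted group and 54.9, 61.5, 54.3 and 54.1 CPM in the controls (log2 fold change -0.17 ± 0.12 SE). Rps15a was at 139, 173, 153 and 162 CPM and at 161, 179, 180 and 162 CPM (log2 fold change -0.12 ± 0.08 SE). For Rps15a, 2 of the control values lay above every Ager-deleted value, and the groups overlapped. Rpl15 gave a fold change of -0.09 ± 0.06 SE on the log2 scale, and Rpl23a, which sits where the nascent chain leaves the ribosome, gave 0.13 ± 0.1 SE. Rps10, among the members with the most negative estimates, was at 7.37 ± 1.27 and 7.81 ± 1.45 CPM (SD, n = 4 each; log2 fold change -0.09 ± 0.16 SE). None of the members reached an unadjusted exact permutation p of 0.05 on single values, the smallest being 0.0571 for Rpl3l, and 4 mice against 4 cannot give less than 0.0286.

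The members differed more between single mice than between genotypes. The 83 genes took 1.1%, 1.37%, 0.965% and 1.2% of all counts in the Ager-deleted mice, and 1.12%, 1.15%, 1.15% and 1.13% in the controls. The highest and the lowest mouse were therefore both Ager deleted, with the controls close together between them. The group means were 1.16% ± 0.171 and 1.14% ± 0.0125 (SD, n = 4 each), a difference of 0.0227 percentage points that is well inside the spread of the Ager-deleted mice. It was -0.0476 percentage points without E5231 and 0.0873 without E5248. The share without mitochondrially encoded genes in the total kept both extremes, at 1.42% in E5231, 1.01% in E5248 and 1.17% to 1.2% in the controls.

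**Figure D3:**
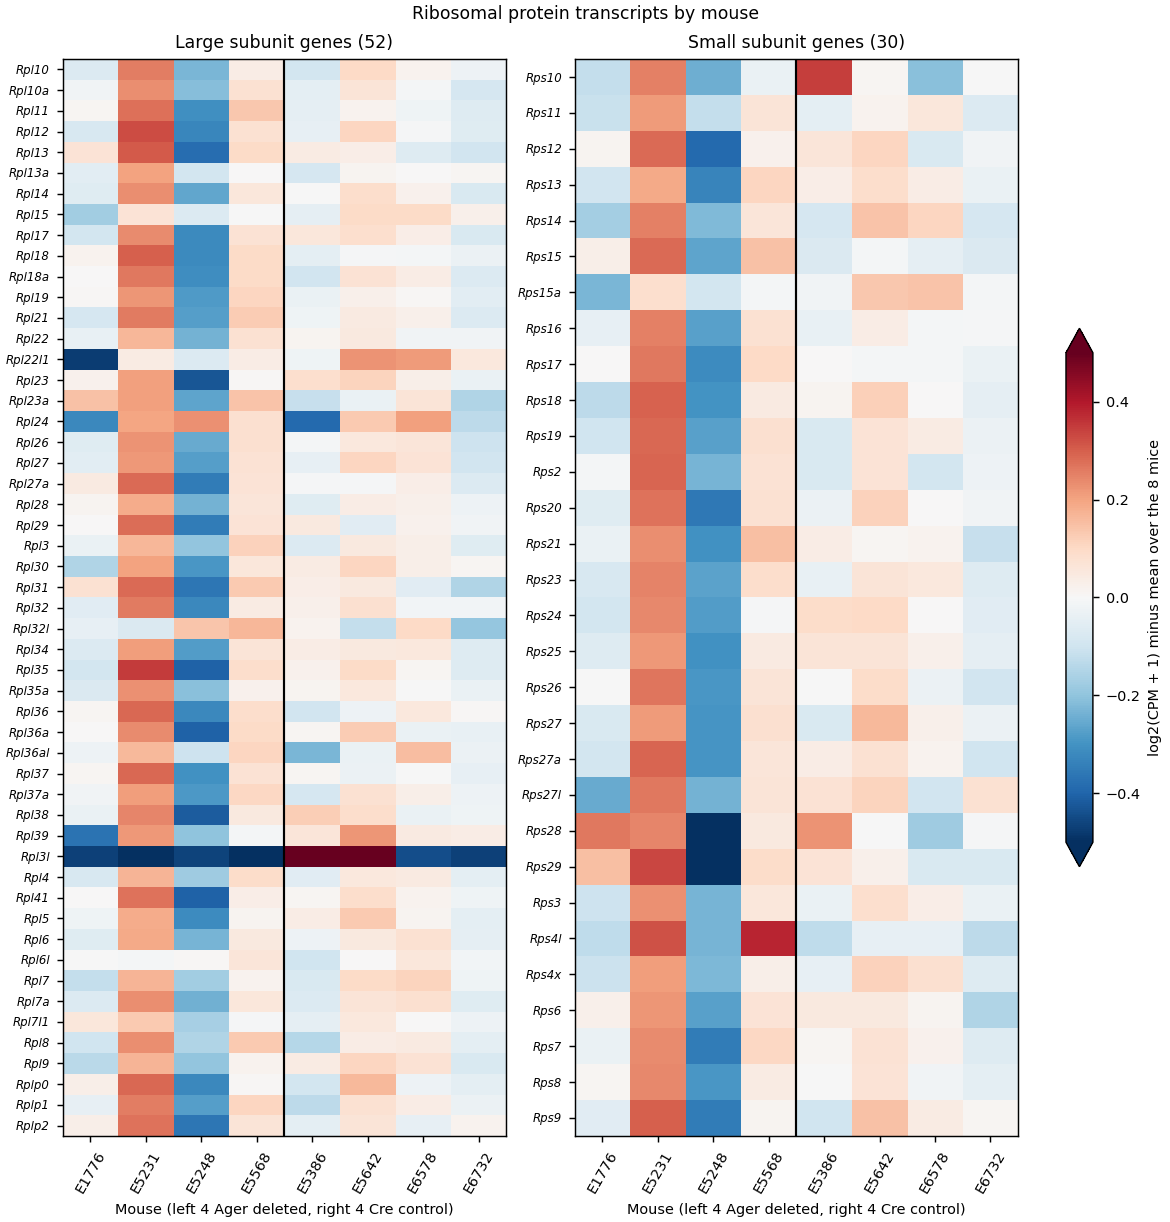
Log2(CPM + 1) of 82 members each minus its mean over 8 mice (colour), with genes in rows by subunit and mice in columns, Ager deleted at the left of the black line and Cre control at the right. E5231 is red and E5248 blue over almost every row of both subunits, and the main exceptions are Rpl24, Rpl32l, Rpl6l and Rpl3l.

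Nearly all members took part in this difference. Of the 83 members, 72 had their highest value in E5231 and 73 had their lowest in E5248, while over all tested genes 17.1% were highest in E5231 and 18.1% lowest in E5248. Both held for 70 members (84.3%), against 8.29% of tested genes. E5231 exceeded E5248 by a median of 1.44-fold over the members and 0.995-fold over all tested genes, and among canonical members that ratio ran from 0.977 (Rpl24) to 1.82 (Rps28). Rpl35, a large subunit protein, had 57.6 CPM in E5231 and 33.7 CPM in E5248, and 42.9 to 48.1 CPM in the controls. Rps9 had 351 and 224 CPM, and 266 to 316 CPM in the controls.

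The subunits moved together. Summed large subunit CPM over summed small subunit CPM was 1.5, 1.47, 1.51 and 1.5 in the Ager-deleted mice and 1.48, 1.48, 1.51 and 1.5 in the controls. As a description over 8 mice, in which all points share the same libraries, a canonical member's log2(CPM + 1) had a median Pearson r of 0.96 with the mean of the other canonical members, and 61 of 83 members were above 0.9. Low values came from Rpl32l (-0.31), Rpl6l (0.07), Rpl3l (0.09), Rpl24 (0.09) and Rpl22l1 (0.31). Of these 5, 4 are paralogs, and Rpl32l, Rpl6l and Rpl3l had 8 to 23 counts in most mice. The members most variable between mice were Rpl3l (coefficient of variation 133%), Rpl32l (29.7%), Rpl24 (19.3%), Rps28 (18.2%) and Rps4l (17.3%). The median was 11.1% over members and 11.8% over all tested genes, which include many with low counts. Over tested genes with a mean above 10 CPM, a closer match to most members, it was lower, at 8.3%. Rps28, a small subunit protein near the mRNA exit, had 29.1 CPM in E5248 and 39.2 to 53.6 CPM in every other mouse.

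The partners left out by the rule followed the same order of mice. Rpsa, a small subunit protein, was at 338 CPM in E5231 and 252 CPM in E5248, and at 276 to 290 CPM in the controls. Rack1, a signalling scaffold on the small subunit, was at 288 and 196 CPM, and at 231 to 257 CPM in the controls. Fau, made as a fusion of a ubiquitin-like protein with Rps30, was at 167 and 107 CPM, and at 128 to 147 CPM in the controls. Rps3a1, a small subunit gene whose symbol the rule does not match, was at 243 and 179 CPM, and at 210 to 238 CPM in the controls. None of these 4 genes passed the test between genotypes (adjusted p = 1 in edgeR's exact test for each).

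**Figure D4:**
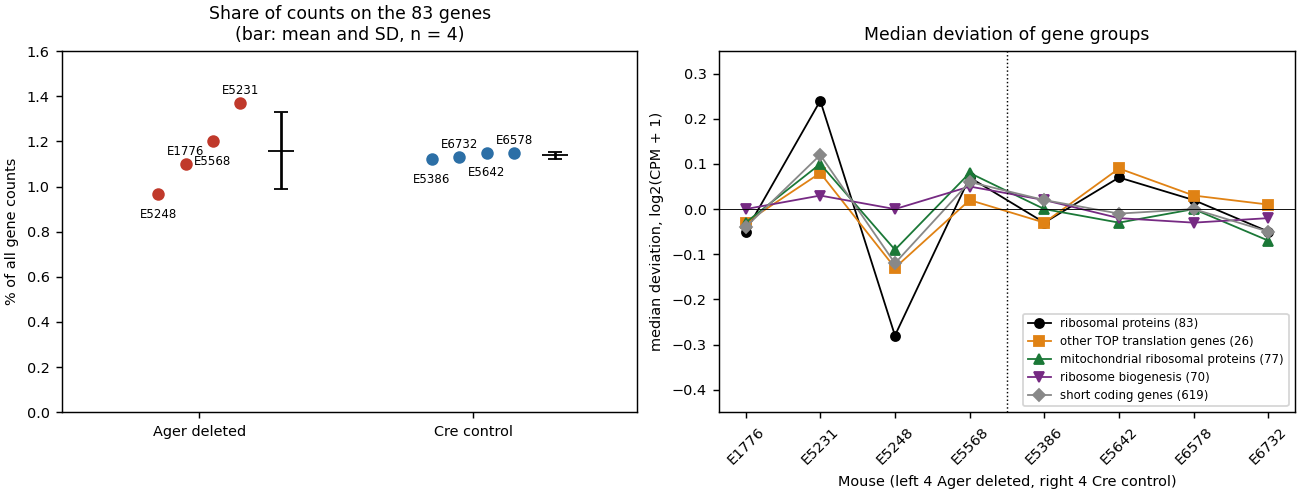
Left, share of all counts on the 83 genes (y axis, %) in each mouse, with the mean and SD of each genotype (n = 4). Right, median deviation of log2(CPM + 1) from the mean over 8 mice (y axis) in each mouse for the members and for other gene lists, with the member median reaching 0.24 in E5231 and -0.28 in E5248.

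Other gene lists were read in the same mice. The median deviation of log2(CPM + 1) from the mean over 8 mice was -0.05, 0.24, -0.28 and 0.07 for the members in the Ager-deleted mice and -0.03, 0.07, 0.02 and -0.05 in the controls. For 26 other translation genes with TOP transcripts, such as elongation factors, it was 0.08 in E5231 and -0.13 in E5248. For 77 mitochondrial ribosomal proteins, which build the separate ribosome of the organelle, it was 0.1 and -0.09. For 70 genes of ribosome biogenesis, which make and fold the particle in the nucleolus, it was 0.03 and 0.0. For 86 nuclear genes of the respiratory chain it was 0.09 and -0.11. The members thus deviated further than each of these lists in both mice, and the difference between lists was not tested.

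Transcript length moved with this pattern. Protein coding genes with under 1 kb of exon that are not members had a median deviation of 0.12 in E5231 and -0.12 in E5248 (619 genes), those of 1 to 4 kb had 0.04 and -0.04 (8852 genes), and those above 4 kb had -0.05 and 0.05 (5869 genes). Short coding genes with a mean above 40 CPM had 0.16 and -0.15 (111 genes). Microglia markers also differed between these mice, with a median deviation of 0.3 in E5231 and -0.35 in E5248 (10 genes), further out than the members, and summed values of 1430, 1500, 1010 and 1080 CPM in the Ager-deleted group and 1400, 1300, 1290 and 1230 CPM in the controls. Erythroid markers had a median deviation of 0.37 in E5231 and -0.53 in E5248 (5 genes), also further out than the members, with -1.41 in E1776. Summed astrocyte markers were at 17900 CPM in E5231 and 13600 CPM in E5248, and oligodendrocyte markers at 23700 and 21400 CPM. Summed Schwann cell markers ran the other way, at 661 CPM in E5231 and 1250 CPM in E5248. So did summed neuron markers (4480 and 5730 CPM) and leptomeningeal markers (245 and 380 CPM). The part of transcript length and of these cell types in the result was not tested.

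Between genotypes, the marker lists held 3 called genes, all of skeletal muscle and all lower with Ager deleted, which were Myh4, Ckm and Atp2a1 (3 of 29 tested, log2 fold changes of -6.1, -5.97 and -6.39, adjusted p of 0.0105, 0.0281 and 0.0294 in edgeR's exact test). None of the 3 passed the quasi-likelihood test (adjusted p = 0.705 for each), and their groups overlapped. All 3 were high only in controls E5386 and E5642, with Ckm at 0.423 and 1.92 CPM in the other controls. No gene passed among 7 tested liver, 10 microglia, 10 neuron, 8 astrocyte, 8 oligodendrocyte, 5 erythroid, 5 Schwann cell or 6 leptomeningeal markers. Among the smallest p in these lists were those of Cyp2e1 and Ttr (liver, log2 fold changes of -3.98 and -5.73), P2ry12 (microglia, -0.32), Nefh and Nefl (neurons, 0.12 and -0.12), and Gja1 and Slc1a2 (astrocytes, -0.21 and -0.19). They were followed by Cnp and Cldn11 (oligodendrocytes, 0.09 and -0.09) and by Hbb-bt and Alas2 (erythroid cells, -0.65 and -0.53). After these came Pmp22 and Prx (Schwann cells, -0.22 and -0.33), and Dcn and Col1a2 (leptomeninges, -0.91 and -0.32). Cyp2e1 and Ttr were high in control E6732 alone, at 38.7 and 28.1 CPM. P2ry12 was the 1 of 10 microglia markers whose groups did not overlap, beside 3.88% of all tested genes.

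The lists of the pathway gave no call between genotypes. None of 26 other TOP translation genes, 70 ribosome biogenesis genes, 19 mTOR and translation control genes or 10 genes of the p53 response to free ribosomal proteins passed the exact test, with median log2 fold changes of -0.017, 0.046, 0.018 and -0.007. Each of the first 3 lists had 1 gene at an unadjusted p under 0.05. These were Eif3e, a subunit of the initiation factor eIF3 (-0.22 ± 0.09 SE on the log2 scale), Tcof1, a nucleolar protein needed for rRNA synthesis (0.23 ± 0.1 SE), and Mycl, a MYC family transcription factor (0.29 ± 0.12 SE), each with an adjusted p of 1. Npm1, the nucleolar chaperone nucleophosmin, had a log2 fold change of -0.15, and Rrp9, a component of the particle that processes rRNA, one of 0.22. Rps6kb1, the kinase that phosphorylates Rps6, was at 49.7, 45.3, 52.8 and 49 CPM in the Ager-deleted group and 53.4, 56.3, 53.6 and 55.8 CPM in the controls. Its groups did not overlap, with a log2 fold change of -0.16 ± 0.06 SE and an adjusted p of 1. Rps6kb1 was the 1 of 19 genes in its list without overlap, beside 3.88% of all tested genes. Groups were also apart for 2 of the 26 TOP translation genes, 5 of the 70 ribosome biogenesis genes and 0 of the 10 p53 response genes. The same held for 3 of the 77 mitochondrial ribosomal protein genes, Mrpl38 among them. Of the p53 response genes, Ccng1 and Cdkn1a had the smallest p, and their log2 fold changes were -0.11 ± 0.09 SE and -0.23 ± 0.28 SE. Among 77 mitochondrial ribosomal protein genes none passed, and Mrpl38 and Mrpl4 had the smallest p (log2 fold change 0.15 each, adjusted p = 1 in edgeR's exact test).

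The paralogs behaved less uniformly than the canonical genes. Rpl3l replaces Rpl3 in ribosomes of heart and skeletal muscle. Its level was 0.559, 0.431, 0.564 and 0.439 CPM with Ager deleted, and 4.16, 6.33, 0.585 and 0.559 CPM in the Cre controls. The first 2 controls stood far above the Ager-deleted mice, and the other 2 were within or just above their range. The log2 fold change was -2.54 ± 0.74 SE (adjusted p = 0.14 by edgeR's exact test and 0.705 by its quasi-likelihood test). With dispersions estimated as common and tagwise, the exact test's adjusted p was 0.0136. E5386 and E5642 are the mice whose skeletal muscle markers summed to 1460 and 2180 CPM. In those mice Ckm, the muscle creatine kinase, was at 74.9 and 114 CPM, against at most 1.92 CPM elsewhere. Without them the log2 fold change of Rpl3l was -0.2 (adjusted p = 1). Without control E6578 it was -2.87 (adjusted p = 0.00315), and without control E6732 it was -2.88 (adjusted p = 0.00118), so that a call appeared when either of the controls with little muscle RNA was left out.

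**Figure D5:**
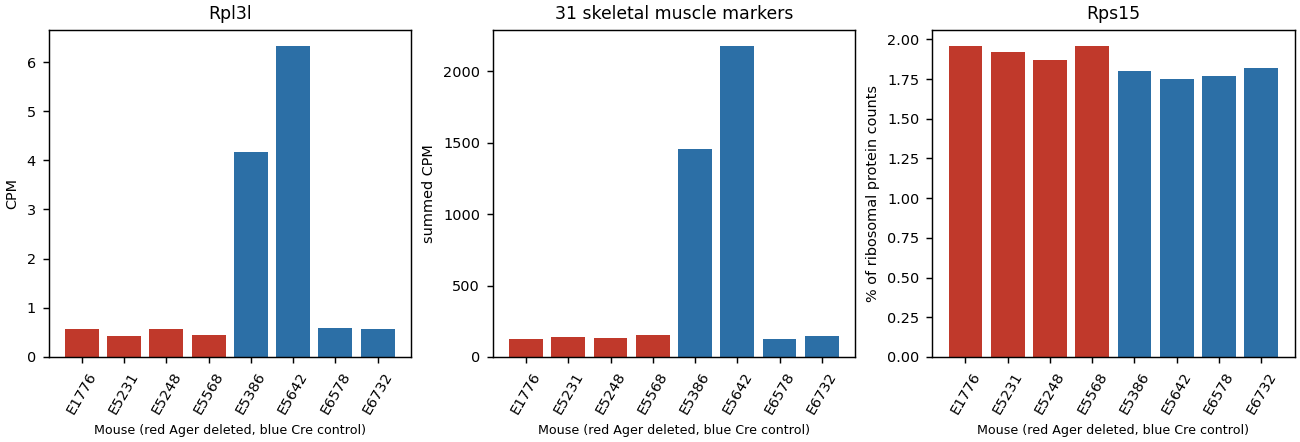
Bars for each mouse (red, Ager deleted; blue, Cre control) of Rpl3l in CPM, of 31 skeletal muscle markers in summed CPM, and of Rps15 as a percent of all ribosomal protein counts. Rpl3l and the muscle markers are high in E5386 and E5642 alone, and Rps15 is at 1.87% to 1.96% in the Ager-deleted mice and 1.75% to 1.82% in the controls.

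Rpl3, by contrast, was at 319, 366, 284 and 353 CPM in the Ager-deleted group and 311, 337, 333 and 313 CPM in the controls (log2 fold change 0.03 ± 0.09 SE). As a share of the counts on both genes, Rpl3l was 1.32% in E5386 (95% exact Clopper-Pearson interval 1.12% to 1.54%) and 1.84% in E5642 (1.6% to 2.11%). In the other 6 mice it was 0.118% to 0.198%, and the upper bounds of its intervals, which cover counting error only, were at most 0.306%.

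Rpl22l1, a paralog that is repressed by Rpl22 and that binds RNA, was at 25.5, 36.8, 34.1 and 36.7 CPM in the Ager-deleted group and 35.2, 42, 41.6 and 37.1 CPM in the controls. The value of E1776 was the lowest, the others overlapped between groups, and the log2 fold change was -0.23 ± 0.12 SE (interval -0.48 to 0.03, adjusted p = 1 in edgeR's exact test). Its share of the counts on both genes was 14.9% in E1776 and 18% to 21.9% in the other mice. Rpl22 was at 146, 168, 127 and 158 CPM with Ager deleted and 151, 155, 148 and 148 CPM in the controls, and its log2 fold change was -0.01 (interval -0.19 to 0.17).

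Rps27l, a p53 target and paralog of Rps27, took 12% to 14.7% of the counts of the pair in all 8 mice, and its log2 fold change was -0.07 ± 0.12 SE. Rps27 was at 126 ± 18.5 CPM in the Ager-deleted group and 129 ± 9.28 CPM in the controls (SD, n = 4 each). Rpl7l1, a relative of Rpl7 known from ribosome assembly, took 14.6% to 17.3% of its pair and had the smallest coefficient of variation of the paralogs, at 6.15%, with a log2 fold change of 0.01 (interval -0.15 to 0.17). For Rpl7 it was -0.05 (interval -0.24 to 0.14). Rps4l took 8.75% to 9.22% of the counts shared with Rps4x in the controls, and 9.51%, 10.4%, 9.54% and 12.1% in the Ager-deleted mice. All 4 shares in the Ager-deleted mice were above all controls, while the CPM of Rps4l itself overlapped between groups (24.1, 33.2, 22.3 and 34.7 against 24.1, 25.6, 25.6 and 24; log2 fold change 0.2 ± 0.14 SE, interval -0.1 to 0.5). The Clopper-Pearson intervals of the shares in E1776 (8.94% to 10.1%) and E5248 (8.91% to 10.2%) overlapped that of control E6732 (8.68% to 9.79%). Shares of the 8 pairs were not tested between genotypes, and no background for such shares was computed. Rps4x, encoded on the X chromosome, had a log2 fold change of -0.04 (interval -0.25 to 0.17). Rpl36al took 3.31% to 4.9% of the counts shared with Rpl36a, and the log2 fold change was 0.09 for Rpl36al (interval -0.24 to 0.42) and -0.02 for Rpl36a (interval -0.28 to 0.24).

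Rpl6l and Rpl32l were near the limit of detection, with 8 to 14 and 10 to 23 counts per mouse. Their log2 fold changes were 0.13 ± 0.26 SE and 0.34 ± 0.31 SE, with intervals of -0.45 to 0.7 and -0.35 to 1.03, so that changes of that size were not detectable at this depth. They share 76.4% and 35.4% of their 50-base stretches with other genes, Rpl6 and Rpl32 among them. For Ager-deleted mice and controls in turn, Rpl6 had 195 ± 24 and 198 ± 7.93 CPM, and Rpl32 had 177 ± 29.4 and 180 ± 5.59 CPM (SD, n = 4 each).

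Because the members moved together from mouse to mouse, their makeup was also read as each gene's percent of all ribosomal protein counts. Groups did not overlap on this scale for 4 of 83 members (4.82%), against 1.02% of all tested genes when scaled the same way. That scaling removes the variation common to the members and not that of other genes, so the shares are not a like comparison. Rps15, a small subunit protein near the decoding centre, made up 1.96%, 1.92%, 1.87% and 1.96% of the counts in the Ager-deleted mice and 1.8%, 1.75%, 1.77% and 1.82% in the controls. Rpl10a, the protein of the L1 stalk, made up 0.691% ± 0.0125 and 0.668% ± 0.0051 (SD, n = 4 each). Rpl30 made up 0.779%, 0.813%, 0.826% and 0.83% against 0.876%, 0.859%, 0.843% and 0.871%, and Rps25, which some viral RNAs need to recruit ribosomes, 1.24% ± 0.00477 against 1.27% ± 0.0409. These 4 genes were chosen after their values were seen. None passed the exact test on counts scaled to the members, with log2 fold changes of 0.11 for Rps15, 0.05 for Rpl10a, -0.09 for Rpl30 and -0.04 for Rps25 and an adjusted p of 1 for each.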

How the data were processed

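Per the labels and the study's methods, the authors removed low-quality reads (Trimmomatic 0.36), aligned read pairs of a stranded polyA library to mm10 with STAR 2.7.3a, and counted them per GENCODE M25 gene with featureCounts (Subread 1.6.3). The strand setting of the counting is not given in the sources used here. The authors deposited raw counts for 55291 genes, and log2 CPM values normalized by TMM in edgeR for 19470 genes, from which the tested genes and the members were taken. Recomputed log2 values were within 4.78e-06 of the deposited ones. All tests used the raw counts.

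Columns were matched to mice by ID and groups were taken from the genotype in the labels; no sample was pooled or left out. Counts per mouse totalled 31148047 to 40324897. Each replicate is 1 mouse. Counts were filtered with filterByExpr (minimum 10), normalized by TMM and tested in edgeR 4.0.16 (R 4.3.3) with the exact test, after the study's methods, and with glmQLFit and glmQLFTest. P-values were adjusted by Benjamini-Hochberg over all 19470 genes with a threshold of 0.05. At this threshold the exact test called 14 genes, fewer than the study's text reports from its own exact test. That text does not give the dispersion setting, and the reason for the difference was not tested. Standard errors and 95% intervals are from the quasi-likelihood fit. Single values were compared by exact two-sided permutation of log2(CPM + 1) over 70 assignments of mice. The fits were tested on simulated data.

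Exon lengths and overlaps are from GENCODE M21 on GRCm38 and promoters from RefSeq. Alternatives were other normalizations, filters, dispersions, pseudocounts, DESeq2 1.42.0, limma-voom (limma 3.58.1), genes or members left out and mice left out; scaling to the members and leaving out E5231 with E5248 were chosen after seeing the data. The members and lists were chosen with earlier results of these data known, and the mitochondrial ribosomal, respiratory chain and length lists were added after the values were seen. The genes named are members called by either test, the 10 with the smallest exact p, the 5 largest fold changes each way, the 5 highest and 5 lowest levels per kb, the 5 largest coefficients of variation, each paralog with its parent, the partners, Ager, and from every other list the genes called and the 2 with the smallest p; any other gene named was chosen after its values were seen. A few genes that this rule names, and 1 member in the figures, are not reported here.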

Additional observations from a re-analysis of the deposited data

Results flagged for a closer look

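Among 14 members looked at in each genotype, with the summed share, 30 sets of 4 mice were tested for a mouse far from the other 3 (Dixon's criterion, the gap to the nearest mouse over the whole range), and 2 were found. Chance flags about 1 in 20 such sets. Rpl23a was at 37 CPM in Ager-deleted mouse E5248 and at 49.3 to 51.5 CPM in the other 3 Ager-deleted mice, a gap of 0.845 of the range. Rpl39 was at 61.5 CPM in control E5642 and at 54.1 to 54.9 CPM in the other 3 controls, a gap of 0.884 of the range.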

How the results depend on the processing

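The count of members called between genotypes was 0 in the exact test and was 0 under every alternative run except 3. With common and tagwise dispersions 1 member was called, Rpl3l (adjusted p = 0.0136), and with single mice left out the count ran from 0 to 1. The call in those fits was Rpl3l without control E6578 or without control E6732. The adjusted p of Rpl3l ran from 0.00118 to 0.845 with single mice left out and was 0.258 in DESeq2 and 0.81 in limma-voom. The median log2 fold change of the members, 0.011, ran from -0.081 (without E5231) to 0.09 (without E5248) with single mice left out, and was also below 0 without E5386 (-0.012), E5568 (-0.013) or E6732 (-0.006); without both E5231 and E5248 it was 0.007. The difference in the share of counts, 0.0227 percentage points, ran from -0.0476 (without E5231) to 0.0873 (without E5248). The median log2 fold change of the members was -0.003 in limma-voom and 0.035 with library size only. The log2 fold change of Rpl6l, at 8 to 14 counts per mouse, turned from 0.13 to -0.00028 without control E5386 and to -0.02 without E5386 and E5642, and over single mice left out it ran from -0.00028 to 0.22; the cause was not tested. Members with non-overlapping genotypes numbered 0 and became 4 when scaled to the members, by a construction that removes their common variation. No paired analysis was run, because the labels give mouse IDs and no pairing of mice between the groups.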
